A study of Rattus norvegicus with 24 samples.

Results

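The genes described here were 8 transcripts that fat cells are known for, looked for in muscle. They were Adipoq, Plin1, Lep, Cfd, Cidec, Fabp4, Retn and Lipe, and they were found by gene name in a table of 21067 genes. All 8 were in the table, and all 8 were among the 14772 genes tested, which had a mean of at least 0.1 FPKM (fragments per kilobase of transcript, scaled to the mapped fragments of the library) over the 24 libraries. The RNA came from the quadriceps muscle of male and female Sprague-Dawley rats, 6 weeks old when bought, with 6 libraries in each of 4 groups. The control group, labelled blank, was fed normally and was not trained. The treadmill group ran on a treadmill for 7 weeks, up to 35 m/min, and was then run to exhaustion. Catgut group 1 (catgut embedding acupoint 1) and catgut group 2 (catgut embedding acupoint 2) had the same training and exhaustion, after absorbable catgut thread had been placed at acupoints. The 2 catgut groups shared the points Bai Hui, Qian Shen, Yang Wa, Qiang Feng, Han Gou and Xie Qi, and group 2 also had Fei Shu. No group received catgut without training.

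White adipocytes store triglyceride in 1 large lipid droplet and release fatty acids from it when energy is needed. Adipoq, Lep, Retn and Cfd encode proteins that adipocytes secrete. Plin1 and Cidec coat the droplet and help it to grow, Lipe is a lipase that acts on the stored lipid, and Fabp4 binds fatty acids in the cytoplasm. Adipocytes also lie between muscle fibres and along the muscle's surface, so a piece of muscle can hold some of them. Fabp4 and Lipe are also made outside adipocytes, Fabp4 in capillary endothelium and macrophages and Lipe in muscle fibres. In RNA from whole tissue, fewer cells of a type and less RNA per cell cannot be told apart.

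The libraries held 45945938 to 78278080 counts each. The commonest count above 0 was 4, not 1, and a count of 12, that is 3 fragments, was taken as the detection limit. Within a group, the median correlation of a library with the others over all genes was 0.973 to 0.988. The muscle markers Acta1, the skeletal actin, and Ckm, the muscle creatine kinase, averaged 27588 FPKM and 16886 FPKM. The Y-linked gene Eif2s3y was above 1 FPKM in 3 libraries of each of the control group, the treadmill group and catgut group 1 and in 2 libraries of catgut group 2, whereas the methods give as many males as females in every group. The labels name quadriceps muscle as the tissue, while the extraction text speaks of adipose. The labels do not tie libraries to single animals, and p-values measure only the spread between these libraries.

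The 8 genes differed widely in level. Fabp4 was between 309 and 667 FPKM in all 24 libraries, and its mean ranked 134th of the 21067 genes. Lipe was between 8.61 and 29.4 FPKM, and its mean ranked 3027th. Cfd had a mean of 17.4 FPKM and ranked 2707th, above Lipe. The other 5 genes were lower. Adipoq had a mean of 3.72 FPKM and ranked 6875th, and Plin1 had a mean of 1.13 FPKM and ranked 10206th. Cidec averaged 0.748 FPKM, Retn 0.403 FPKM and Lep 0.142 FPKM, with ranks of 11117, 12341 and 14217. Counts were over the detection limit in all 24 libraries for Fabp4, Lipe and Cfd, in 23 for Adipoq, in 22 for Cidec, in 21 for Plin1, in 14 for Retn and in 9 for Lep.

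Adipoq encodes adiponectin, the most abundant hormone of fat cells. The table lists it (ENSRNOG00000001821) on the minus strand of chromosome 11, from 81330293 to 81344488, in a genome build that is not given in the sources used here. In the control group Adipoq was 0.0450 FPKM in the lowest library, 4.10 at the median and 21.4 in the highest. In the treadmill group it was 0.234, 3.41 and 4.67 FPKM. In catgut group 1 it was 0.323, 1.04 and 3.78 FPKM, and in catgut group 2 it was 0.139, 0.730 and 7.94 FPKM. The control group held both the highest and the lowest library of the whole series, with control libraries 1 and 4 at 18.7 and 21.4 FPKM and control libraries 2 and 3 at 0.113 and 0.0450 FPKM. The highest control library was 475-fold above the lowest, from counts of 2782 and 8, and the same span was 57.0-fold in catgut group 2, 19.96-fold in the treadmill group and 11.7-fold in catgut group 1. The 4 groups overlapped over most of their ranges.

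Plin1 encodes perilipin 1, which surrounds the lipid droplet of adipocytes and holds back lipases (chromosome 1, 141458181 to 141471010, minus strand). Its values in the control group were 0.0312 FPKM at the lowest, 1.41 at the median and 4.80 at the highest. The treadmill group had 0.0965, 0.967 and 2.35 FPKM, catgut group 1 had 0.133, 0.281 and 2.01 FPKM, and catgut group 2 had 0.0197, 0.270 and 2.67 FPKM. The 7 libraries with over 2 FPKM of Plin1 were control 1, 4 and 5, treadmill 2, catgut 1 library 2 and catgut 2 libraries 3 and 4, each with 3.78 FPKM or more of Adipoq. Treadmill library 5, with 4.67 FPKM of Adipoq, had 1.11 FPKM of Plin1. Cidec encodes a protein that fuses small droplets into large ones (chromosome 4, 145377431 to 145390497, minus strand). Its lowest, median and highest values were 0.0395, 1.06 and 3.16 FPKM in the control group. The treadmill group had 0.279, 0.647 and 0.973 FPKM, catgut group 1 had 0.0974, 0.286 and 0.738 FPKM, and catgut group 2 had 0, 0.344 and 2.12 FPKM. Control library 4 and catgut 2 library 4 held the 2 highest Cidec values of the series.

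Cfd encodes complement factor D, also called adipsin, a protease that adipocytes release (chromosome 7, 12634216 to 12635943, minus strand). Its lowest, median and highest values were 2.95, 15.6 and 60.6 FPKM in the control group. Treadmill libraries had 3.40, 19.1 and 43.2 FPKM. In catgut group 1 they were 4.84, 8.83 and 24.7 FPKM, and in catgut group 2 they were 2.80, 12.6 and 27.5 FPKM. Cfd did not come near 0 in the libraries where Adipoq did, with 3.28 FPKM in control library 3 against 0.0450 FPKM for Adipoq. The table lists Arhgap45 on the same strand over part of Cfd, and how reads in the shared stretch were counted is not given in the sources used here.

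Lep encodes leptin, the hormone that reports fat stores to the brain (chromosome 4, 56337695 to 56351818, plus strand). In the control group it was 0 FPKM in the lowest library, 0.221 at the median and 0.813 at the highest. In the treadmill group it was 0, 0.0275 and 0.136 FPKM, in catgut group 1 it was 0.0201, 0.0377 and 0.349 FPKM, and in catgut group 2 it was 0, 0.0181 and 0.528 FPKM. Lep counts were over the detection limit in 4 control libraries, in 1 treadmill library and in 2 libraries of each catgut group, and the highest treadmill count was 32. Retn encodes resistin, a hormone of rodent adipocytes (chromosome 12, 2201891 to 2204249, plus strand). It was 0, 0.291 and 1.60 FPKM in the control group. The treadmill group had 0, 0.848 and 1.16 FPKM, catgut group 1 had 0, 0.123 and 0.469 FPKM, and catgut group 2 had 0, 0.192 and 0.770 FPKM. Retn was over the detection limit in 5 treadmill libraries, and Lep in 1.

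Fabp4 (chromosome 2, 93792601 to 93797305, plus strand) varied much less than these 6 genes. It was 345, 388 and 599.7 FPKM in the control group, with control library 4 the highest. Treadmill libraries had 318, 397 and 647 FPKM. It was 309, 469 and 605 FPKM in catgut group 1 and 450, 593 and 667 FPKM in catgut group 2. The highest library of a group was 1.48-fold to 2.03-fold above its lowest. Lipe encodes hormone-sensitive lipase (chromosome 1, 82248046 to 82266727, minus strand), and the table lists AC121639 on the opposite strand over part of it. Lipe was 9.24, 11.7 and 21.8 FPKM in the control group. The treadmill group had 8.61, 13.0 and 29.4 FPKM, catgut group 1 had 9.50, 14.7 and 23.6 FPKM, and catgut group 2 had 13.3, 16.0 and 20.8 FPKM. The library with the most Lipe in the series, treadmill 3, was the treadmill library with the least Adipoq.

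**Figure D1:**
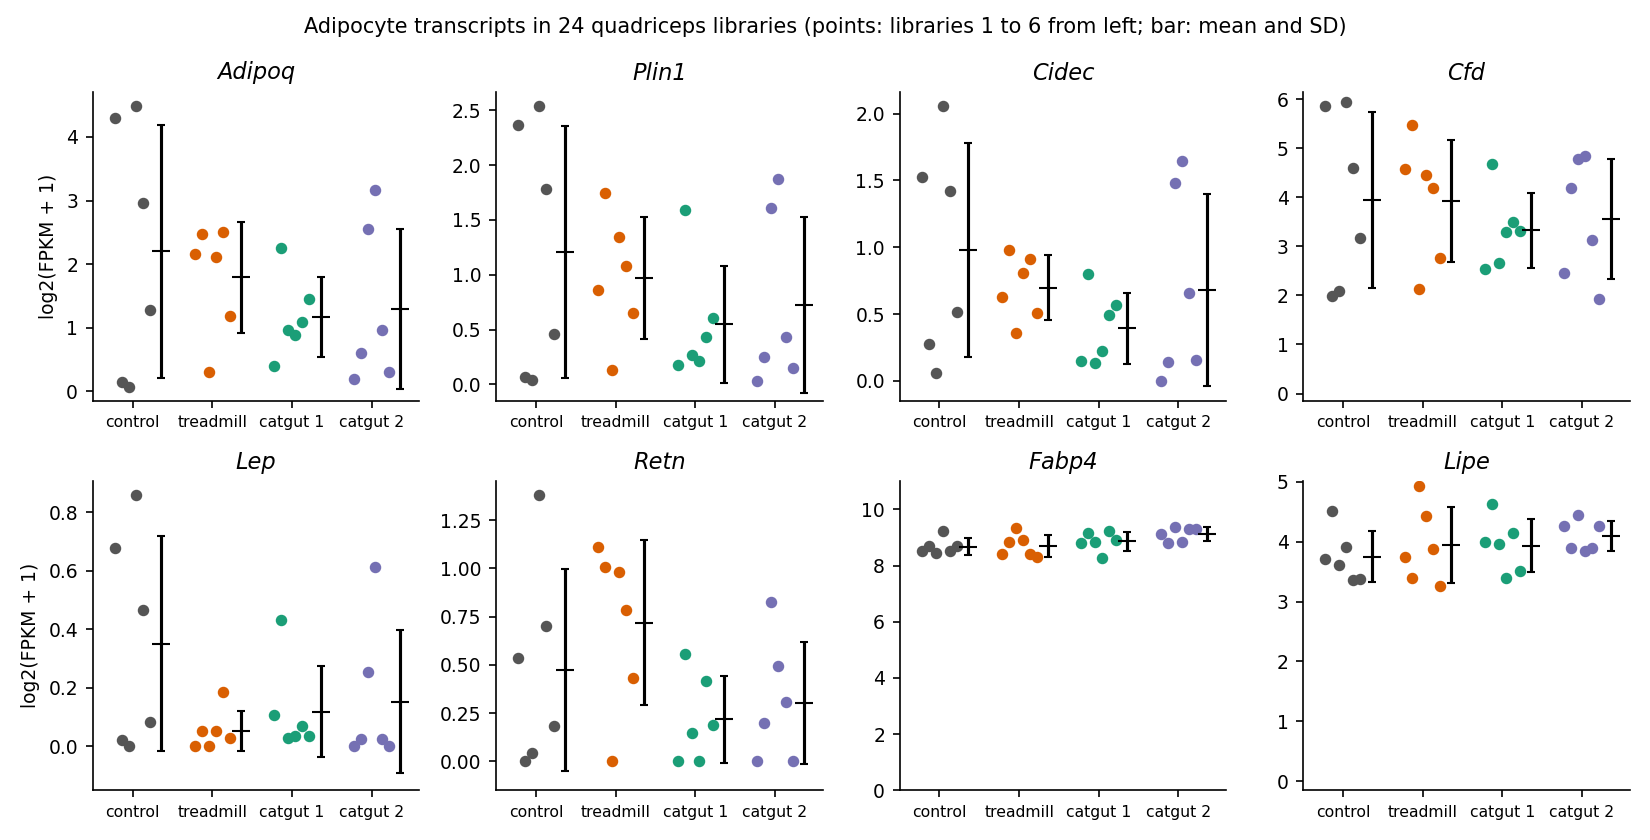
Level of each of the 8 genes on the log2(FPKM + 1) scale (vertical axis, with a range of its own in each panel) in the 4 groups (horizontal axis). Points are the 6 libraries of a group, in number order from left to right, and the bar beside them gives the mean and SD. The 6 genes from Adipoq to Retn are spread widely within each group, whereas Fabp4 stays between 309 and 667 FPKM and Lipe between 8.61 and 29.4 FPKM.

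The order of the group means differed between the genes. Adipoq, Plin1 and Cfd had the order control, treadmill, catgut group 2, catgut group 1, from high to low. Cidec had the order control, catgut group 2, treadmill, catgut group 1, and Lep had the order control, catgut group 2, catgut group 1, treadmill. Retn was highest in the treadmill group, followed by control, catgut group 2 and catgut group 1. Fabp4 had its lowest mean in the control group, at 416 FPKM ± 94.0 (SD, n = 6), followed by 429 ± 125 in the treadmill group, 477 ± 104 in catgut group 1 and 566 ± 93.2 in catgut group 2. Lipe was also lowest in the control group, at 13.0 FPKM ± 4.66 (SD, n = 6), and highest in catgut group 2, at 16.4 ± 3.10. Of 48 exact two-sided permutation tests of 1 gene between a pair of groups, on the mean of log2(FPKM + 1) over all arrangements of the 12 libraries, 2 had p under 0.05 and no pair of groups was free of overlap. They were Retn in catgut group 1 against the treadmill group (exact permutation p = 0.0346) and Fabp4 in catgut group 2 against the control group (exact permutation p = 0.0173). With 48 tests neither is past a correction and neighbours in these orders did not differ beyond the spread of their libraries. The exact tests and the overlap were not worked out for the other genes. The 2 counts thus have no share over all genes beside them and are not read as a trait of the members.

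The comparison of the treadmill group with the control group asks how these transcripts stood after 7 weeks of training and the final run to exhaustion. No member was at an adjusted p under 0.05 by edgeR's quasi-likelihood test with Benjamini-Hochberg adjustment, where 0.0542% of all genes were, and 1 was at an unadjusted p under 0.05, where 9.12% were. Leptin was the only member to meet the study's criterion, means that differ more than 1.5-fold in either direction and an unadjusted p below 0.05, which 2.85% of all genes met. The mean of Lep was 0.312 FPKM ± 0.343 (SD, n = 6) in the control group and 0.0379 ± 0.0507 in the treadmill group. The log2 fold change was -2.85 with a standard error of 1.27 and an edgeR adjusted p of 0.543. The 2 groups overlapped, because control libraries 2 and 3 had Lep counts of 4 and 0, as low as the treadmill libraries. Lep met the criterion in 4 of the 12 fits that left out 1 library, those without control 2, 3 or 6 or treadmill 5.

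The other secreted and droplet genes gave estimates within about 1 or 2 standard errors of no difference. The log2 fold change of the treadmill group over the control group was -1.40 for Adipoq (standard error 1.09), -0.83 for Plin1 (0.990), -0.87 for Cidec (0.724) and -0.45 for Cfd (0.760). Retn had the opposite sign, at 0.65 (standard error 1.06). Fabp4 was at 0.09 (standard error 0.175) and Lipe at 0.32 (0.322). The median of the 8 members was -0.64, beside -0.002 for all genes tested.

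The comparisons of the catgut groups with the treadmill group ask what the embedding added to the training. In catgut group 1 no member was at an adjusted p under 0.05 by edgeR, where 0.0474% of all genes were, and no member was at an unadjusted p under 0.05, where 6.93% were. No member met the study's criterion, which 3.12% of all genes met. Retn and Cidec came nearest, with log2 fold changes of -2.02 (standard error 1.02, edgeR adjusted p = 0.765) and -0.96 (standard error 0.480, edgeR adjusted p = 0.760). Adipoq was at -1.01 (standard error 0.614), Plin1 at -0.95 (0.716) and Cfd at -0.82 (0.519). Lep was at 1.15 (standard error 1.02), so it lay on the other side of 0 from the remaining secreted genes. Fabp4 and Lipe were at 0.11 (standard error 0.182) and -0.13 (0.309). Without catgut 1 library 2, which had the most Adipoq of its group, 5 members met the criterion, all lower in catgut group 1: Adipoq, Plin1, Cidec, Cfd and Retn. Without treadmill library 3, 4 did: Adipoq, Cidec, Cfd and Retn.

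In catgut group 2 against the treadmill group no member was at an adjusted p under 0.05 by edgeR, where 0.237% of all genes were. No member was at an unadjusted p under 0.05, where 10.7% were, and none met the criterion, which 3.76% met. Fabp4 was at a log2 fold change of 0.38 (standard error 0.193, edgeR adjusted p = 0.522). Adipoq and Plin1 were at -0.33 (standard errors 0.882 and 0.908), Cfd at -0.41 (0.593), Cidec at 0.21 (0.883) and Lipe at 0.02 (0.297). Retn was at -1.49 (standard error 1.04) and Lep at 1.54 (1.32). The Lep estimate was 0.09 without catgut 2 library 4, which held the highest Lep level outside the control group.

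Against the untrained control group, catgut group 1 had 2 members past the criterion, which 4.62% of all genes met. By edgeR 0 members were at an adjusted p under 0.05, where 0.0203% of all genes were, and 2 were at an unadjusted p under 0.05, where 9.84% were. The mean of Adipoq was 8.06 FPKM ± 9.62 (SD, n = 6) in the control group and 1.46 ± 1.23 in catgut group 1, a log2 fold change of -2.42 (standard error 1.10, edgeR adjusted p = 0.497). Cidec was at -1.82 (standard error 0.812, edgeR adjusted p = 0.490). Both calls were lost without control library 1, 4 or 5, the control libraries with the most of these transcripts, and also without any of catgut 1 libraries 1, 3, 4, 5 and 6. Without catgut 1 library 2, 5 members met the criterion, namely Adipoq, Plin1, Cidec, Cfd and Lep. In catgut group 2 against the control group no member met the criterion, which 5.96% of all genes met, and 0 were at an adjusted p under 0.05 by edgeR, where 0.508% of all genes were, and 1 was at an unadjusted p under 0.05, where 16.4% were. It was Fabp4, which at a ratio of mean FPKM of 1.36 had a log2 fold change of 0.46 (standard error 0.146) with an unadjusted p of 0.00748 and an adjusted p of 0.159 by edgeR, and an adjusted p of 0.0396 by DESeq2. Between the catgut groups no member met the criterion, which 1.25% of all genes met, and 0 were at an adjusted p under 0.05 or an unadjusted p under 0.05 by edgeR, where 0.00677% and 3.26% of all genes were. Comparisons that use the same treadmill or control libraries share them, and their values are given side by side only.

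**Figure D2:**
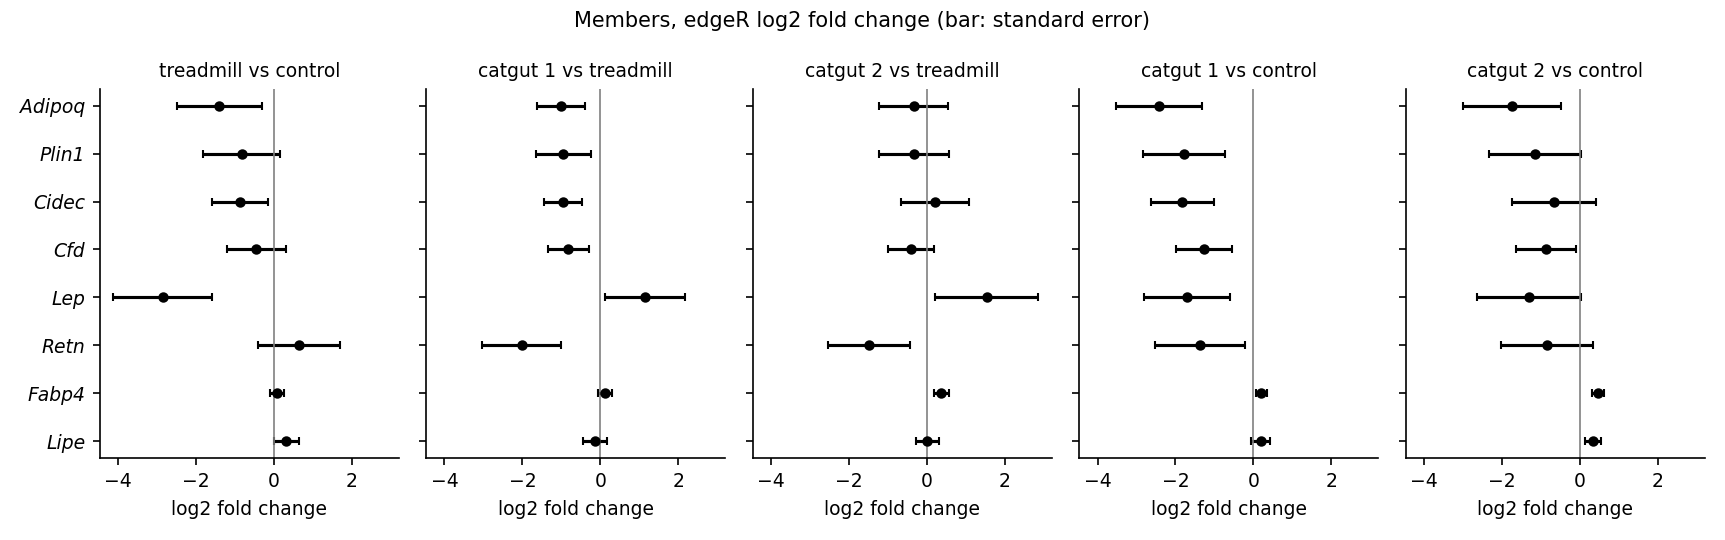
edgeR log2 fold change of each member (horizontal axis) in 5 comparisons, 1 panel each, with the 8 genes on the vertical axis. Points are estimates, bars are standard errors and the grey line is no difference. Bars of Adipoq, Plin1, Cidec, Cfd, Lep and Retn are longer than those of Fabp4 and Lipe in each panel, and Lep lies at -2.85 in the treadmill group against the control group and at 1.15 and 1.54 in the catgut groups against the treadmill group.

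Adipoq varied together with 5 of the other members from library to library. Over the 24 libraries, on the log2(FPKM + 1) scale, Adipoq had Pearson's r = 0.973 and Spearman's rho = 0.983 with Plin1, r = 0.943 and rho = 0.923 with Cidec, and r = 0.923 and rho = 0.917 with Cfd. It had r = 0.857 and rho = 0.826 with Lep and r = 0.810 and rho = 0.849 with Retn. Each of these 5 had a permutation p of 1e-05, the smallest that 100000 resamples can give, and 2.55e-05 after adjustment over the 28 pairs of members. Without control libraries 1 and 4, the 2 farthest from the median in Adipoq, r was 0.958 with Plin1, 0.922 with Cidec, 0.895 with Cfd, 0.729 with Lep and 0.836 with Retn. The points share their library, so the preparation of 1 piece of muscle enters both values of a pair.

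Adipoq, Plin1, Cidec, Cfd, Lep and Retn were set apart by their r with Adipoq in these same libraries. High values among them, and low values of the other members with them, were thus partly fixed by that choice. The 15 pairs among these genes had r between 0.515 and 0.973 with a median of 0.857. The lowest was Lep with Retn, at r = 0.515 and rho = 0.548 (permutation p = 0.00927, adjusted p = 0.0162), and it was 0.330 without the 2 libraries farthest from the median. After each gene was centred on its group means, the 15 pairs lay between 0.699 and 0.971 and the relation was thus present without the differences between groups. Within a group of 6 libraries the median of the 15 pairs was 0.977 in the control group, 0.872 in the treadmill group, 0.857 in catgut group 1 and 0.874 in catgut group 2.

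Fabp4 and Lipe stood outside this set, which was drawn by r with Adipoq. Their 12 pairs with the 6 other genes had r between -0.21 and 0.10, with r = -0.06 and rho = -0.02 for Adipoq with Fabp4 (permutation p = 0.778) and r = -0.21 and rho = -0.28 for Adipoq with Lipe (permutation p = 0.328). They varied with each other, at r = 0.673 and rho = 0.666 (permutation p = 0.00031, adjusted p = 0.000579), and at 0.617 without the 2 farthest libraries. Within the groups the lowest of the 12 pairs was -0.51, among treadmill libraries, and the highest was 0.81, in catgut group 1, where all 12 were positive, with 6 libraries each.

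**Figure D3:**
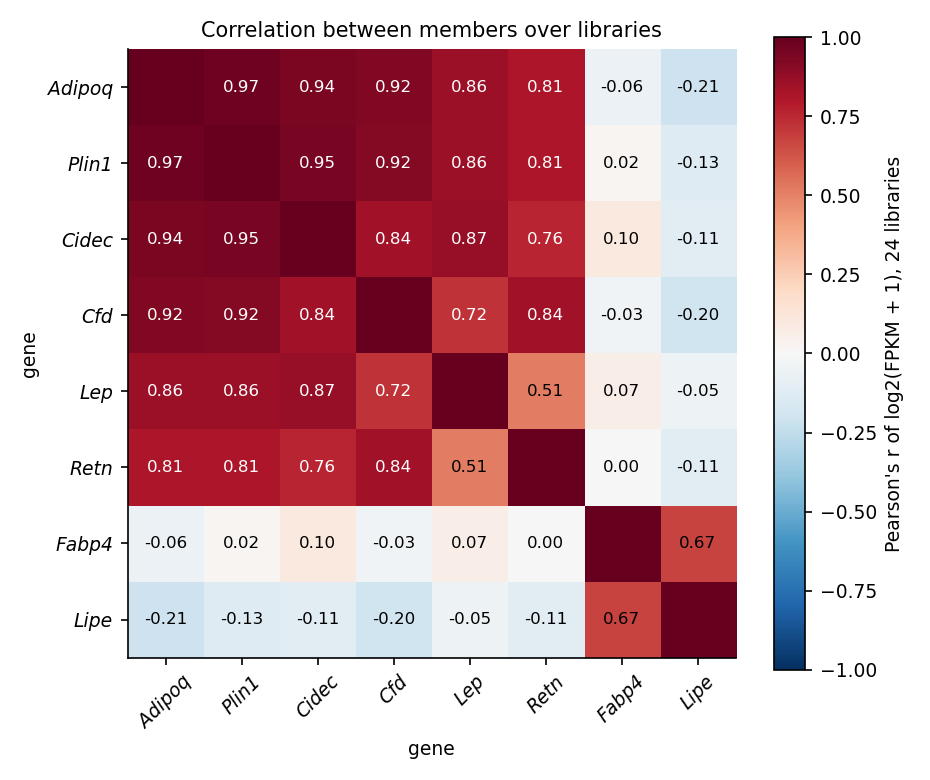
Pearson's r of log2(FPKM + 1) over the 24 libraries for each pair of the 8 genes, which stand on both axes (colour and printed value). The block from Adipoq to Retn runs from 0.51 to 0.97, and the only other value above 0.10 is 0.67 for Fabp4 with Lipe.

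**Figure D4:**
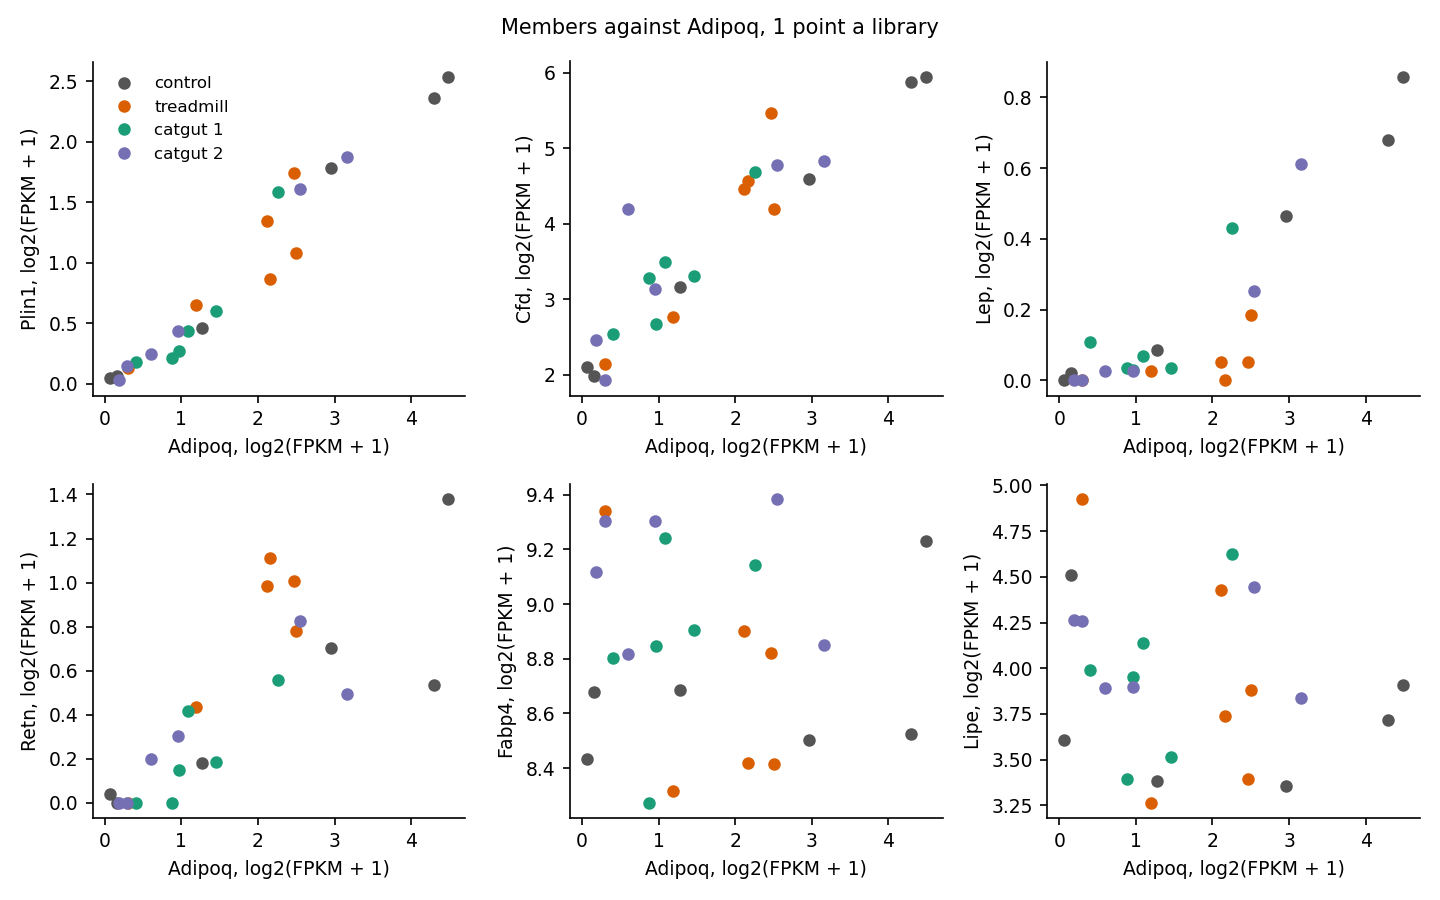
Level of Plin1, Cfd, Lep, Retn, Fabp4 and Lipe (vertical axes) against that of Adipoq (horizontal axes), all as log2(FPKM + 1), with 1 point a library and 1 colour a group. Plin1 and Cfd rise with Adipoq in every group, treadmill libraries 1, 2 and 4 have at most 0.0366 FPKM of Lep at 3.33 to 4.54 FPKM of Adipoq, and Fabp4 and Lipe show no slope over the 24 libraries together, with r of -0.06 and -0.21.

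Among all 14771 other genes tested, those most like Adipoq by Pearson's r were Plin1, Cidec and Cfd, ranked 1, 2 and 3, with Lep 9th and Retn 12th. Fabp4 ranked 11549th and Lipe 13111th. Only 47 genes, or 0.318%, had r above 0.7 with Adipoq, and the median of all genes was 0.18. The 10 non-members most like it were Slc7a10 (r = 0.917), Ankef1 (0.903), Trarg1 (0.885), Cdo1 (0.884), Calml3 (0.869), Ces1d (0.846), Pola1 (0.814), Apcdd1 (0.795), MGC109340 (0.794) and Prkar2b (0.791). Slc7a10 is an amino acid transporter of white adipocytes, Trarg1 takes part in the traffic of the glucose transporter GLUT4, Cdo1 breaks down cysteine, Ces1d is a carboxylesterase and Prkar2b is a regulatory subunit of protein kinase A. Their levels were low too, with a median of 0.138 FPKM for Slc7a10, 1.25 FPKM for Trarg1 and 2.497 FPKM for Cdo1.

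Near the starts of these genes the RefSeq promoter table, in build GRCr8, gave 250 bases upstream for 6 members, all but Fabp4 and Lipe. They were searched on both strands for TTGCNNAA, a form of the site bound by C/EBP proteins, factors that drive adipocyte differentiation. It was in 3 of the 6 windows, and in 9.22% of all 33469 promoters of the table. The Lep match is the palindrome TTGCGCAA, which is also a TTGCNNAA match and was in 0.140% of all promoters. The 3 stretches of 60 bases are shown because they hold these matches, which are in capitals, and each is written 5′ to 3′ on the strand of its gene.
Plin1, chr1:143086192-143086251, minus strand: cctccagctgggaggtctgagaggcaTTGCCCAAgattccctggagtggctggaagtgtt
Lep, chr4:58626443-58626502, plus strand: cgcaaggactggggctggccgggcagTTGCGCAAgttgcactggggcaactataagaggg
Cidec, chr4:148137291-148137350, minus strand: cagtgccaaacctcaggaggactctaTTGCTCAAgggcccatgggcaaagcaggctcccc
The matches begin 77 bases before the listed start in Plin1, 69 in Lep and 209 in Cidec. AGGTCA, the single element of nuclear receptors such as PPAR gamma, was in Retn only, where it occurred at 2 places, and in 14.1% of all promoters. The direct repeat of AGGTCA with 1 base between the copies was in none of the 6 and in 0.0508% of all promoters. CCAAT was also searched for, and was in Adipoq, Plin1 and Lep and in 34.0% of all promoters. TATAAA and CACGTG were in none of the 6, and in 12.9% and 5.59% of all promoters. These letters are matches in the sequence and not measured binding, and the GRCr8 positions cannot be set beside the table's gene positions, whose build is not stated.

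Lep and Retn were also set against Adipoq in the same library, beside Plin1. Plin1 was 31.2% of the Adipoq FPKM at the median in the control group, 43.0% in the treadmill group, 30.6% in catgut group 1 and 36.7% in catgut group 2. Lep was 4.03% of Adipoq at the median of the control group (range 0% to 12.7%) and 0.946% in the treadmill group (0% to 2.91%). It was 3.66% in catgut group 1 (1.46% to 24.1%) and 2.71% in catgut group 2 (0% to 6.65%). For Retn the control group had a median of 8.38% (0% to 63.8%) and the treadmill group one of 24.7% (0% to 33.3%). Catgut group 1 had 9.61% (0% to 29.7%) and catgut group 2 had 10.5% (0% to 28.7%). The ranges overlapped in every pair of groups. The highest Lep percentage of the series, in catgut 1 library 1, came from counts of 15 for Lep and 39 for Adipoq, and the highest for Retn, in control library 3, from counts of 3 and 8.

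With log2(FPKM + 0.1) of Adipoq as a covariate in the edgeR fit, a model chosen after the values were seen, the treadmill group differed from the control group by -1.71 (standard error 0.769, unadjusted p = 0.0462, adjusted p = 0.528) in Lep and by 1.56 (standard error 0.637, unadjusted p = 0.0311, adjusted p = 0.503) in Retn. Lep was at 2.15 (standard error 1.01, unadjusted p = 0.0546 by edgeR) in catgut group 1 against the treadmill group and at 1.49 (0.834) in catgut group 2. In the same fit Plin1 was at 0.50 (standard error 0.233), Cfd at 0.12 (0.225) and Cidec at -0.06 (0.316) in the treadmill group against the control group. None of these passed the adjustment over all genes. The standard error of Plin1 was 0.990 without the covariate.

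**Figure D5:**
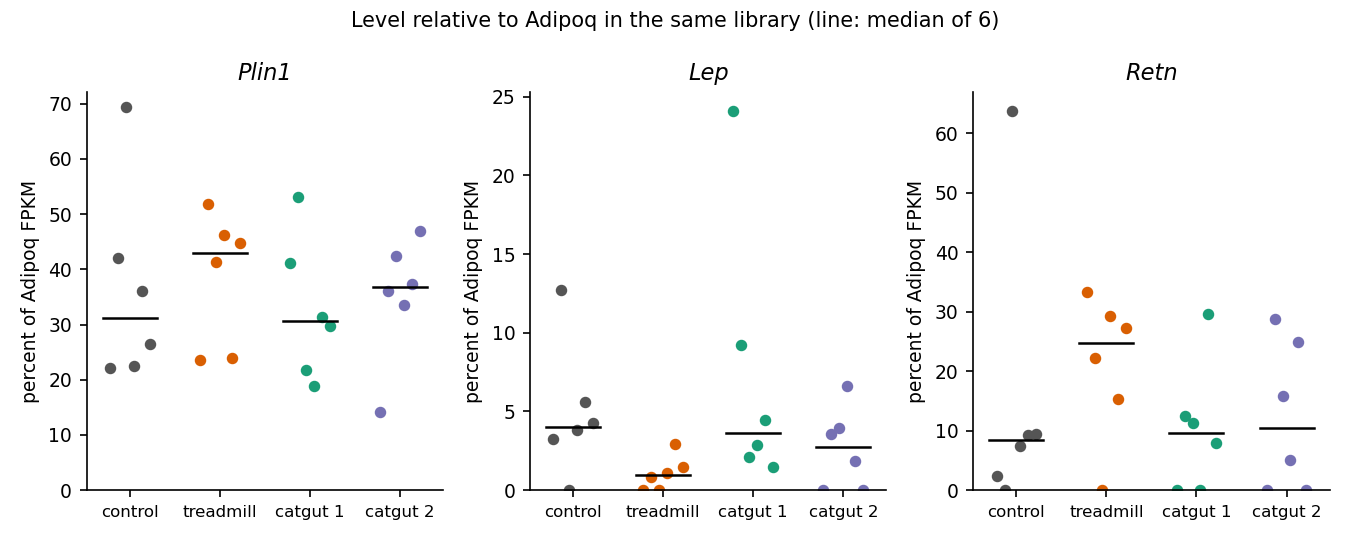
FPKM of Plin1, Lep and Retn as a percent of the Adipoq FPKM of the same library (vertical axes, from 0) in the 4 groups (horizontal axis), with 1 point a library and a line at the median of 6. For Lep, 5 of the 6 treadmill points lie between 0% and 1.47%, all from counts under the detection limit. For Retn 5 of the 6 lie between 15.4% and 33.3%, and the Plin1 medians run from 30.6% to 43.0%.

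Other genes known from adipocytes also differed in whether they varied with Adipoq. Of 20 further adipocyte genes fixed as a list, 6 had r above 0.7 with Adipoq: Slc7a10 (0.92), Trarg1 (0.89), Cebpa (0.78), Lgals12 (0.75), Adrb3 (0.74) and Sncg (0.73). Lgals12 and Adrb3 were below the mean of 0.1 FPKM needed for testing. They were at 0.0455 and 0.0279 FPKM, and at 0 in 11 and 13 of 24 libraries. Cebpa encodes C/EBP alpha, Adrb3 the beta-3 adrenergic receptor and Lgals12 a galectin of lipid droplets. Another 6 had r below 0, among them Plin4 (-0.50), Agpat2 (-0.34), Aqp7 (-0.33), Dgat2 (-0.31) and Cidea (-0.16), and Gpd1, at a mean of 291 FPKM the highest of the list, had r = 0.30. Pparg, the nuclear receptor that directs adipocyte formation, was at 1.82 FPKM and had r = 0.33 with Adipoq and 0.69 with Fabp4. Acvr1c was at 0 in 21 of 24 libraries. In the lipolysis list Prkar2b (0.79) and Adrb3 (0.74) had r above 0.7 with Adipoq, while Pnpla2, which encodes the first lipase of triglyceride breakdown, had -0.30 at a mean of 55.7 FPKM. None of the 9 lipid droplet genes, 7 triglyceride synthesis genes, 5 brown adipocyte genes or 4 fatty acid handling genes had r above 0.7. Ucp1, Cd36, Mlxipl, Itln1 and Dio2 were not analysed here.

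The receptors of these hormones are expressed in muscle. Adipor1 and Adipor2, the adiponectin receptors, were at 102 and 55.2 FPKM, and their r with Adipoq was 0.32 and 0.02. Lepr, the leptin receptor, was at 0.197 FPKM with r = 0.60. None of the 5 receptor genes met the criterion in the 5 comparisons with the treadmill or control group, where 2.85% to 5.96% of all genes did. With 5 genes, none is near that share.

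The other adipocyte and lipid genes, 64 of which were tested, were counted by the same criterion. The treadmill group had 3 of 64 past it against the control group, where 2.85% of all genes were: Thrsp (log2 fold change -1.27, standard error 0.428) and Scd (-1.09, 0.372) were lower, both genes of fatty acid synthesis, and Cox7a1, a respiratory chain subunit, was higher (2.29, 0.588). Catgut group 1 had 8 of 64 against the treadmill group, with 4 in each direction, where 3.12% of all genes were past it. Dgat2, the last enzyme of triglyceride synthesis (0.87, standard error 0.379), Klf15 (0.70, 0.112), Cebpd (1.03, 0.265) and Nampt (0.56, 0.193) were higher, and Scd (-0.75, 0.285), G0s2 (-0.79, 0.336), Pnpla3 (-0.94, 0.402) and Rbp4 (-2.43, 0.907) were lower. Catgut group 2 had 7 of 64 against the treadmill group, where 3.76% of all genes were past it. Lpl, which frees fatty acids from lipoproteins (0.99, standard error 0.359), Dgat2 (1.05, 0.376) and Klf15 (0.67, 0.127) were higher, and Srebf1 (-0.84, 0.210), Angptl4 (-1.08, 0.474), Rbp4 (-1.61, 0.715) and Lpin1 (-0.88, 0.153) were lower. Lpin1 was the only one of these at an adjusted p under 0.05 (0.0421 by edgeR).

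Rbp4 is made by liver as well as by adipocytes. The liver markers Alb, Serpina1 and Fgb met the criterion in the same direction, with log2 fold changes of -9.69, -7.29 and -6.67 in catgut group 1 against the treadmill group. These markers and Rbp4 were also past the criterion, and lower, in both catgut groups against the control group. The summed liver list reached 305 FPKM in 1 treadmill library, 187 FPKM at most in the control group and 18.7 FPKM at most in the catgut groups. The part of those libraries in the Rbp4 values was not tested.

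Against the control group, catgut group 1 had 11 of 64 and catgut group 2 had 12 of 64 past the criterion, where 4.62% and 5.96% of all genes were. Thrsp was lower in both, at -1.41 (standard error 0.342) and -1.84 (0.333, edgeR adjusted p = 0.0392 in catgut group 2). Dgat2 was higher in both, at 0.84 (0.230) and 1.02 (0.210). Trarg1, one of the genes most like Adipoq, was lower in both, at -1.35 (0.508) and -1.13 (0.511). Between the 2 catgut groups 2 of 64 were past it, where 1.25% of all genes were: Apln was higher and Cebpd lower in catgut group 2, at 0.89 (0.345) and -0.65 (0.287). The median log2 fold change of the 16 tested adipocyte genes was -0.09 in catgut group 1 and -0.12 in catgut group 2, beside -0.01 and -0.005 for all genes.

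Markers of other cells in the muscle were compared with Adipoq over the 24 libraries, as 20 lists and the total count. No relation was at an adjusted p under 0.05 of 21. The summed muscle markers had r = -0.06 and rho = -0.06 with Adipoq (permutation p adjusted over 21 = 0.807). The largest positive values were r = 0.513 for mesenchymal progenitors, 0.512 for tendon and 0.495 for macrophages, and red blood cell genes had r = -0.53, each with an adjusted permutation p of 0.0745. Their rho was 0.546, 0.582, 0.523 and -0.50. After centring on group means, progenitors were at r = 0.595 with an adjusted permutation p of 0.0435. That p came from resamples over all 24 libraries, which did not allow for the group means taken out. It is therefore too small, and no relation is read from it. The summed progenitor genes ran from 145 to 1178 FPKM over the libraries and skin genes from 0.616 to 1.69 FPKM. Each list was summed as FPKM, so its r mostly follows its highest genes and not each of its genes. Gpd1, at a mean of 291 FPKM, was the highest adipocyte and triglyceride synthesis gene. Me1 (85.0 FPKM) was the highest for lipogenesis and Fabp3 (680 FPKM) for fatty acid handling. The lists of adipocyte and lipid genes had r of 0.284 for the adipocyte genes, 0.185 for the adipokines and 0.371 for the receptors. These lists had 0.438 for lipogenesis and 0.271 for triglyceride synthesis. They had -0.05 for adipogenic factors, -0.39 for brown adipocyte genes, -0.40 for lipid droplet genes, -0.42 for lipolysis and -0.44 for fatty acid handling. The library total had r = 0.254, the Y-linked genes 0.142, endothelial genes -0.31, nerve genes -0.39, liver genes -0.22 and skin genes 0.249. The part of these cells in the Adipoq values was not tested.

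Fabp4 varied with other genes than Adipoq. The 10 genes most like it, looked up after its values were seen, were Adgrf5 (r = 0.884), Anxa3 (0.877), Cav1 (0.877), Cdh5 (0.868), Rbms2 (0.863), Kank3 (0.863), Tcn2 (0.857), Prkch (0.857), AABR07007032 (0.855) and Arap3 (0.853). Cdh5 encodes the cadherin of endothelial junctions, Cav1 the coat protein of caveolae, and Adgrf5 a receptor found on endothelium. The summed endothelial list, of Cdh5, Gpihbp1, Kdr and Tek, had r = 0.862 and rho = 0.826 with Fabp4 (adjusted permutation p = 0.00021 over 21 relations), and r = 0.866 without the 2 farthest libraries. The summed muscle list had r = -0.77 and rho = -0.75 with Fabp4, and -0.70 without those 2. Its 7 genes were divided: 5 had r below 0 with Fabp4, whereas Mb had r = 0.57 and Myh7 had r = 0.28. The median of the endothelial sum was 55.3 FPKM in the control group, 52.1 in the treadmill group, 63.3 in catgut group 1 and 79.3 in catgut group 2, and Fabp4 was also highest in catgut group 2. The part of endothelium in the Fabp4 difference was not tested.

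Genes most like Lipe included Acot2 (r = 0.939), Slc25a22 (0.914), Tmem82 (0.880), Hsdl2 (0.873), Ech1 (0.869), Slc22a5 (0.858), Car4 (0.845), Myog (0.845) and Slc27a1 (0.844), again looked up afterwards. Acot2 and Ech1 act in the mitochondrial use of fatty acids, Slc22a5 brings in carnitine and Slc27a1 takes up fatty acids. In the adipocyte list Aqp7 (0.84), Agpat2 (0.80) and Cidea (0.76) had r above 0.7 with Lipe, and in the fatty acid list Slc27a1, Lpl (0.75) and Fabp3 (0.73) did. Aqp7, a glycerol channel, and Cidea, a droplet protein, had r of -0.33 and -0.16 with Adipoq.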

How the data were processed

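RNA of 24 libraries was enriched for poly(A) mRNA and sequenced in pairs. The authors deposited 1 table of whole-number counts and of FPKM values per gene. The submitters' processing notes name HISAT2 2.0 and StringTie 1.3.0, and the genome build and the counting tool are not given in the sources used here. A shared multiple of about 4 counts a fragment can affect count tests, so counts divided by 4 were tried too. Members then past the criterion had lower unadjusted edgeR p-values than with the counts as deposited. Lep in the treadmill group against the control group went from 0.0438 to 0.0235. Retn in catgut group 1 against the treadmill group went from 0.0685 to 0.0243. Libraries were grouped by the treatment label. Genes with a mean of at least 0.1 FPKM were tested between 2 groups with edgeR 4.0.16 (TMM, quasi-likelihood test, Benjamini-Hochberg over 14772 genes). Single genes were tested by exact permutation on log2(FPKM + 1), and correlations with 100000 resamples. DESeq2 1.42.0, limma 3.58.1, other filters, scalings and covariates and leaving out each library were the alternatives. Scripts were tested on simulated data. Members were found by name. The other genes named were the 10 most like Adipoq and list genes past the criterion, highest or at 0. The members and lists were chosen with earlier results of these data known. Lists covered adipocytes, lipid metabolism and other cells: progenitor, endothelial, macrophage, skin, nerve, tendon, liver, blood, muscle and Y-linked genes. FPKM cannot show reads shared between overlapping genes. Of the genes most like Lipe, 1 is not reported here.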

Additional observations from a re-analysis of the deposited data

Results flagged for a closer look

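Within each group of 6 libraries, the highest or lowest library stood apart from its neighbour by a gap, as a share of the group's range, above Dixon's 95% critical value in 6 of 32 sets of member values. By chance about 1 in 20 sets would if the values were normally distributed, and the members are not independent of each other. The rule was applied to FPKM without a log scale, and all 6 flagged values were the highest of their set. The 6 of 32 can thus not be set against 1 in 20. Catgut 1 library 2 was apart in 3 genes. It had 2.01 FPKM of Plin1 against 0.519 FPKM in the next library, 0.349 FPKM of Lep against 0.0779 FPKM, and 24.7 FPKM of Cfd against 10.3 FPKM. This library also had the most Adipoq, Cidec, Retn and Lipe of its group. Leaving it out moved the number of members past the study's criterion from 2 to 5 against the control group and from 0 to 5 against the treadmill group.

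Lep in treadmill library 5 was 0.136 FPKM against 0.0366 FPKM in the next library, from a count of 32. Lep in catgut 2 library 4 was 0.528 FPKM against 0.191 FPKM in the next library, and the group's median was 0.0181 FPKM. Fabp4 in control library 4 was 599.7 FPKM against 411 FPKM in the next library. The same control library had the most Adipoq, Plin1, Cidec, Cfd, Lep and Retn of the series, and without it the log2 fold change of Fabp4 in catgut group 2 against the control group was 0.54 instead of 0.46.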

How the results depend on the processing

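The depth limits Lep and Retn most, since their counts were at or under the detection limit in 15 and 10 of 24 libraries, and 6 libraries a group with a span of up to 475-fold limit the other low genes. The detection limit covers counting error only. Of 27 member log2 fold changes under the other settings, 279 of 287 values kept their sign and their side of an adjusted p of 0.05, 7 changed sign and 1 passed it, and without 1 library 312 of 324 kept both and 12 changed sign. The passing value was Fabp4 in catgut group 2 against the control group by DESeq2, the 1 member at an adjusted p under 0.05 in that comparison. In every other setting, leaving out 1 library included, 0 members were at an adjusted p under 0.05 in the 6 comparisons. The cause of the changes below was not tested.

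The number of members past the study's criterion in the treadmill group against the control group was 1, and it was 0 with a mean FPKM of at least 1, where Lep was not tested, 0 with limma on log2(FPKM + 1) or log2(FPKM + 0.1), and 0 to 1 without 1 library. In catgut group 1 against the treadmill group it was 0, and it was 2 with DESeq2 and with limma at either pseudocount, 1 with counts divided by 4, and 0 to 5 without 1 library. In catgut group 1 against the control group it was 2, and it was 1 with a mean FPKM of at least 1, with all 4 groups in one fit or with the robust fit, 0 with the Y-linked covariate, with limma at either pseudocount or with the Adipoq covariate added after the data were seen, and 0 to 5 without 1 library. The number of other adipocyte and lipid genes past the criterion in the treadmill group against the control group was 3, and it was 5 with DESeq2, limma on log2(FPKM + 0.1) or the Adipoq covariate, and 3 to 9 without 1 library. In catgut group 1 against the control group it was 7 with a mean FPKM of at least 1 instead of 11. In catgut group 2 against catgut group 1 it was 1 with a mean FPKM of at least 1 or the Y-linked covariate and 4 with DESeq2, instead of 2, and 1 to 4 without 1 library. Without 1 library it was 5 to 10 in catgut group 1 against the treadmill group and 7 to 15 in catgut group 2 against the control group. Exact tests with p under 0.05 numbered 1 instead of 2 with a pseudocount of 0.1, and 1 to 6 without 1 library. The median r of the 28 member pairs was 0.698, was 0.331 within the treadmill group, and was 0.671 to 0.731 without 1 library. Lists related to Adipoq at an adjusted p under 0.05 numbered 1 after centring on group means, and 6 with Fabp4 in place of Adipoq, instead of 0. The test after centring did not allow for the group means taken out, so its p-values are too small.

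In the treadmill group against the control group, Plin1 was at 0.047 and Cfd at 0.023 with limma on log2(FPKM + 0.1). Lipe in catgut group 1 against the treadmill group was at 0.000146 in the same fit, and Cidec in catgut group 2 against the treadmill group was at -0.019 and -0.54 with limma on log2(FPKM + 1) and log2(FPKM + 0.1). Without 1 library, Cfd in the treadmill group against the control group ran from -0.78 to 0.019, Fabp4 from -0.075 to 0.17, Lipe in catgut group 1 against the treadmill group from -0.29 to 0.16, and Cidec and Lipe in catgut group 2 against the treadmill group from -0.39 to 0.47 and from -0.12 to 0.31.

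The groups share replicate numbers. Over all genes, the correlation of the deviations of same-numbered libraries was -0.45 to 0.27 over the 6 comparisons, and in no comparison were all 6 above 0.1. The number went with the Y-linked gene in the control group, the treadmill group and catgut group 1. There Eif2s3y was at least 7.57 FPKM in libraries 4, 5 and 6 and at most 0.0266 FPKM in libraries 1, 2 and 3. In catgut group 2 it was high in libraries 1 and 5. What else same-numbered libraries share was not tested. With the replicate block, the members past the criterion numbered 0 in the treadmill group against the control group, 1 in catgut group 1 against the treadmill group and 0 in catgut group 1 against the control group, and the other adipocyte and lipid genes numbered 1 in catgut group 2 against catgut group 1. With the block, Plin1 in the treadmill group against the control group was at 0.040 and Cidec in catgut group 2 against the treadmill group at -1.04.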
